A study of Rattus norvegicus with 12 samples.

Results

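RNA from the right trigeminal ganglion of female Sprague Dawley rats given a capsule with 20% estradiol (E2), a dose the labels set at the level of proestrus, was compared with RNA from rats given a vehicle capsule of 100% cholesterol. Both groups carried the capsule for 1 week, and each gave 3 of the 12 libraries of the series; the other 6 came from capsules with 5% E2 (diestrus level) or 40% E2 (therapeutic level), with 3 libraries each. The series is about how the dose and timing of estrogen bear on the pain-promoting action of serotonin in these sensory neurons. Of 32545 genes in the files, 14781 had an FPKM (fragments counted on a gene, divided by the length of its model and by library depth) of 1 or more in at least 3 of the 12 libraries and were tested, and 9927 of these had a mean FPKM of 5 or more and are called well-counted here. The labels give neither the age of the rats nor whether the ovaries were removed. They also do not tie each library to an animal of its own, so the p-values cover only the spread among the deposited libraries, which may be technical.

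Estradiol is the main ovarian estrogen, and its level in the blood peaks at proestrus in the rat cycle. It acts through the nuclear receptors ERα and ERβ, which bind DNA and change transcription, and through membrane receptors that act faster. Neurons that sense touch and pain in the head have their cell bodies in the trigeminal ganglion, wrapped by satellite glia and joined by Schwann cells, vessels and immune cells, so a value in bulk RNA is a mix over these cells, and fewer cells of a type cannot be told from less RNA per cell. The files give each gene by its Ensembl identifier with no name, and none of these identifiers is in the reference table used here. Genes are therefore given by identifier or by the length of the gene model, and the ganglion's marker genes, estrogen-responsive genes and serotonin receptors were not analysed here.

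The 6 libraries held 13320144 to 16978830 fragments, as recovered from the FPKM values. On the log2(FPKM + 1) scale, used for all differences below, libraries at 20% E2 differed from vehicle libraries by a root mean square of 0.455 on average (9 pairs, 0.411 to 0.506). The vehicle libraries differed among themselves by more, 0.481 on average (3 pairs, 0.445 to 0.511), and the libraries at 20% E2 by less, 0.423. Vehicle replicate 1 stood apart from the other 11 libraries (mean distance of 0.497, against 0.427 to 0.455 for the rest). Without it, the distance from 20% E2 to vehicle averaged 0.436, close to the 0.435 from 20% E2 to 5% E2 and the 0.426 to 40% E2.

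No well-counted gene passed the threshold between 20% E2 and vehicle: 0 of 9927, or 0%, had an adjusted p under 0.05 (limma, Benjamini-Hochberg over all 14781 genes; smallest adjusted p of a well-counted gene 0.674). Over all genes tested, 1 gene passed with lower values at 20% E2 (0.00677%) and 0 with higher values (0%). At an unadjusted p under 0.05 there were 897 genes (6.07%), of which 623 were well-counted (6.28% of 9927). Of those 623, 279 were higher at 20% E2 (2.81%) and 344 lower (3.47%). The groups did not overlap for 489 well-counted genes with higher values at 20% E2 (4.93%) and for 577 with lower values (5.81%).

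**Figure D1:**
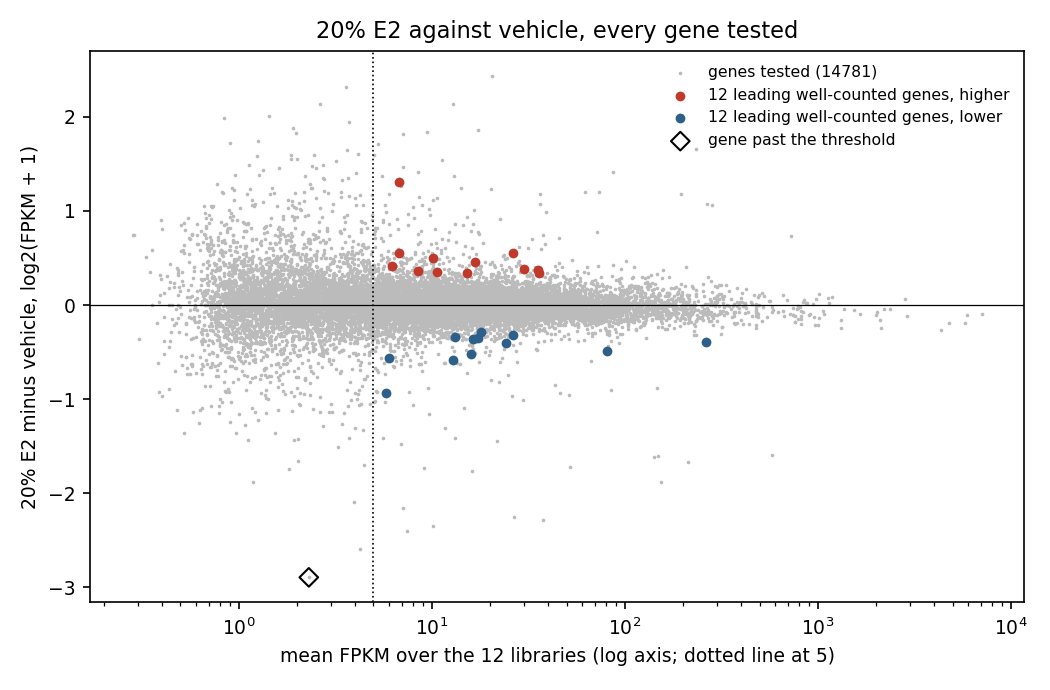
Each point is a gene: mean FPKM over the 12 libraries (log axis) against the difference between 20% E2 and vehicle in log2(FPKM + 1). The 24 leading well-counted genes, 12 higher (red) and 12 lower (blue), lie within 1.31 of 0, and the 1 gene past the threshold (open diamond) lies left of the dotted line at an FPKM of 5.

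The gene that passed, ENSRNOG00000054324, had 10.2, 5.66 and 4.5 FPKM in the 3 vehicle libraries and was listed at 0 in all 3 libraries at 20% E2. It had 1.66, 1.56 and 3.25 FPKM at 5% E2 and 0.943, 0 and 0 at 40% E2, so that every library with E2 lay below every vehicle library. Its difference at 20% E2 was −2.89 ± 0.32 (SE), with an adjusted p of 0.0226 by limma. Taking 3 fragments per library as the most that a count of 0 allows, the vehicle mean was at least 2.62-fold higher than 20% E2. The model has only 79 bases and the vehicle values stand for 26 fragments in all. Without vehicle replicate 1, the library with its highest value, the difference was −2.60 and the adjusted p 0.139; it was also over the threshold without vehicle replicate 2 (0.149), without 5% E2 replicate 1 (0.0570) and without 20% E2 replicate 1, 2 or 3 (0.170, 0.172 and 0.0716). The call also ended with the replicate number as a block (limma adjusted p = 0.0661), on log2(FPKM + 0.1) (0.144), when genes of low level were kept in (0.0809), in a fit of the 6 compared libraries alone (0.111), and with voom on the recovered fragments without (0.725) and with sample weights (0.610).

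Such all-or-none patterns were few and sparse. Among genes tested, 7 were above 0 in all 3 libraries at 20% E2 and at 0 in all vehicle libraries, with 4 to 10 fragments in all. The reverse held for 6 genes, with 6 to 26 fragments, ENSRNOG00000054324 having the most. None of these genes was well-counted, and 5 of the 7 and 4 of the 6 had models under 200 bases. One of the 7, with a model of 60 bases, had 3.69, 2.39 and 2.93 FPKM at 20% E2 on 8 fragments. Its limma adjusted p was 0.166, and it passed only without 5% E2 replicate 2, at 0.0256. Against 5% E2 the same 2 counts were 9 and 9, and against 40% E2 they were 6 and 4.

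The well-counted genes with the smallest p were described next, as genes that did not pass. They are the 12 of smallest p in each direction among the genes whose 2 groups did not overlap. Their models were 649 to 6078 bases long where values were higher at 20% E2 and 305 to 4093 where they were lower, and their adjusted p ranged from 0.674 to 0.785 in both directions. Differences were small: 0.34 to 1.31 in the higher genes and −0.29 to −0.93 in the lower ones. The ratio of group means exceeded 1.5 for 2 of the 12 higher genes, and the inverse ratio did for 3 of the 12 lower genes.

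ENSRNOG00000018798, with a model of 3271 bases, had the smallest p of the higher genes. It had 32, 30.1 and 31.1 FPKM at 20% E2 and 22.4, 20.9 and 19.4 in vehicle. The 3 libraries at 20% E2 were nearly level and lay well clear of vehicle, and 1.49 was the ratio of the means (difference 0.55 ± 0.10 SE, limma adjusted p = 0.674). The 5% E2 libraries had 29.6, 31.7 and 22.9 FPKM and at 40% E2 25.5, 26.5 and 24.2, so that all 9 libraries with E2 lay above all 3 without. These values rest on 3261 fragments in vehicle and 4524 at 20% E2.

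ENSRNOG00000003883, with a model of 807 bases, showed the greatest difference among the 12 higher genes. It had 7.23, 8.72 and 12.4 FPKM at 20% E2 and 3.77, 1.94 and 4.04 in vehicle, a 2.91-fold ratio of means (difference 1.31 ± 0.25 SE, adjusted p = 0.674 by limma). The spread was wide within each group, though the lowest library at 20% E2 was still above the highest of vehicle. At 5% E2 it had 9.15, 8.26 and 4.93 FPKM and at 40% E2 6.46, 7.64 and 6.7. The values stand for 129 fragments in vehicle and 348 at 20% E2.

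2 further higher genes are given with their values at the other doses. The tests of 20% E2 against these doses follow below, and 5% E2 was not tested against 40% E2. In a gene of 3085 bases, the 20% E2 libraries had 8.26, 7.89 and 7.87 FPKM and the vehicle libraries 4.82, 4.78 and 5.92 (ratio 1.55, limma adjusted p = 0.674). Its means at 5% and 40% E2 were 6.35 ± 0.806 and 7.47 ± 1.16 FPKM (SD, n = 3). The 5% E2 libraries of this gene (5.53, 7.14 and 6.38 FPKM) overlapped those of vehicle, and its 40% E2 libraries had 8.77, 6.53 and 7.11. In a gene of 2266 bases, the 20% E2 libraries had 6.88, 7.22 and 6.97 FPKM and the vehicle libraries 4.49, 5.29 and 5.36 (ratio 1.39, limma adjusted p = 0.674). Its 5% E2 libraries (5.94, 5.15 and 5.38 FPKM) lay near the vehicle libraries and overlapped them, while those at 40% E2 (6.87, 7.68 and 7.36) were level with 20% E2.

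ENSRNOG00000016961, with a model of 342 bases, had the smallest p of the lower genes. It had 78, 60.4 and 70.3 FPKM at 20% E2 and 104, 100 and 88.6 in vehicle, a ratio of means of 0.713 (difference −0.49 ± 0.10 SE, limma adjusted p = 0.674). Vehicle replicate 1 was the highest of the 12 libraries. With 5% E2 the values were 82, 71.8 and 75.6 FPKM and with 40% E2 74.1, 79.5 and 83.4, all below vehicle.

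The most unequal of the 12 lower genes had a model of 418 bases, with 4.07, 3.61 and 3.22 FPKM at 20% E2 and 8.93, 6.24 and 8.51 in vehicle (2.17-fold lower; limma adjusted p = 0.674). It rested on only 67 fragments at 20% E2 and 160 in vehicle. At 5% E2, 1 of its 3 libraries (8.59 FPKM) was as high as vehicle and the others were at 4.07 and 4.87. The most abundant of the 12, with a model of 305 bases, had 215, 250 and 228 FPKM at 20% E2 and 334, 290 and 285 in vehicle, on 3141 and 4430 fragments. A gene of 1871 bases had 16.5, 14.8 and 15.7 FPKM against 21.8, 18.6 and 20.6 in vehicle.

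The other leading genes differed by at most 0.58 in either direction and are given by example. Among the higher ones, a gene of 6078 bases rested on the most fragments, 9094 at 20% E2 and 7366 in vehicle, and had 29.3, 34.9 and 35.9 FPKM against 22.7, 25.1 and 28.4. A gene of 649 bases averaged 38.3 ± 2.28 FPKM in the 20% E2 group against 29.3 ± 1.55 for vehicle (SD, n = 3). Among the lower ones, a gene of 2475 bases had the smallest difference, −0.29, with 15.8, 17.5 and 15.5 FPKM against 20.4, 20 and 19.7, groups that were each nearly level. A gene of 4093 bases was lower still at 40% E2 (11.3 ± 0.432 FPKM) than at 20% E2 (12.4 FPKM on average), with 15.8 FPKM in vehicle.

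Vehicle replicate 1 also entered these genes. It was the lowest vehicle library for 7 of the 12 higher genes and the highest for 10 of the 12 lower ones, that is, the one farthest from 20% E2. Over all well-counted genes it was the lowest for 38.2% and the highest for 37.4%. It was the one nearest to 20% E2 for 3 of the higher genes, ENSRNOG00000018798 among them, and for 0 of the lower ones. The genes were chosen on these vehicle values, so these counts are in part built in. With any 1 of the 6 libraries left out, all 24 stayed at an unadjusted limma p of 0.0120 or less, a description only since the genes were chosen by this p.

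**Figure D2:**
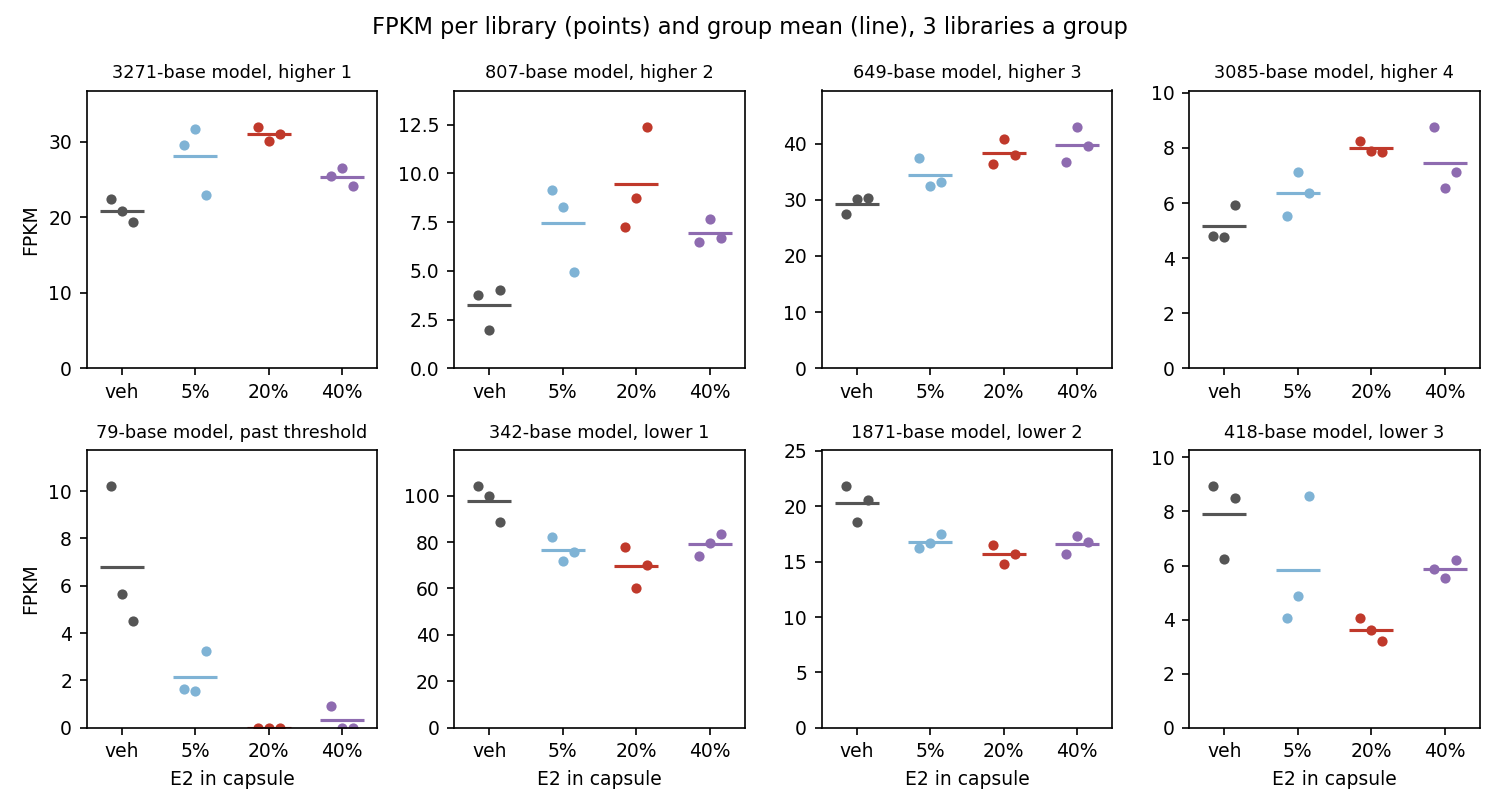
FPKM per library (points) with the group mean (line) in the 4 groups of 3 libraries, for the 4 leading higher genes, the gene past the threshold and the 3 leading lower genes, each by the length of its model. In all 8 the libraries at 20% E2 do not overlap those of vehicle, which is how the 7 leading genes were chosen.

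To see whether these values belonged to 20% E2 more than to E2 at the other doses, the 20% E2 libraries were tested against 5% and 40% E2 in the same fit. None of the 24 leading genes passed in either comparison (smallest limma adjusted p 0.975 and 1), where 0 of 14781 genes passed against 5% E2 (0%) and 1 against 40% E2 (0.00677%). At an unadjusted p under 0.05, 6 of the 24 differed from 5% E2 and 7 from 40% E2, beside 662 (4.48%) and 429 (2.90%) of all genes tested. The genes were chosen on the same 20% E2 libraries, so these counts are not independent of the choice. The gene of 418 bases had the greatest differences from both doses, of −0.51 from 5% E2 and −0.57 from 40% E2. For the other comparisons with vehicle, which share the vehicle libraries, ENSRNOG00000018798 differed by 0.40 at 5% and 0.27 at 40% E2, and ENSRNOG00000003883 by 0.99 and 0.94. Over the 12 higher genes the differences from vehicle ran from 0.10 to 0.99 at 5% E2 (median 0.23) and from 0.15 to 0.94 at 40% E2 (median 0.30), beside 0.34 to 1.31 at 20% E2 (median 0.40). Over the 12 lower genes they ran from −0.42 to −0.17 at 5% E2 (median −0.24) and from −0.45 to −0.12 at 40% E2 (median −0.29), beside −0.93 to −0.29 at 20% E2 (median −0.40). The genes were chosen at 20% E2 with these vehicle libraries, so the order of the doses is set in part by the choice.

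**Figure D3:**
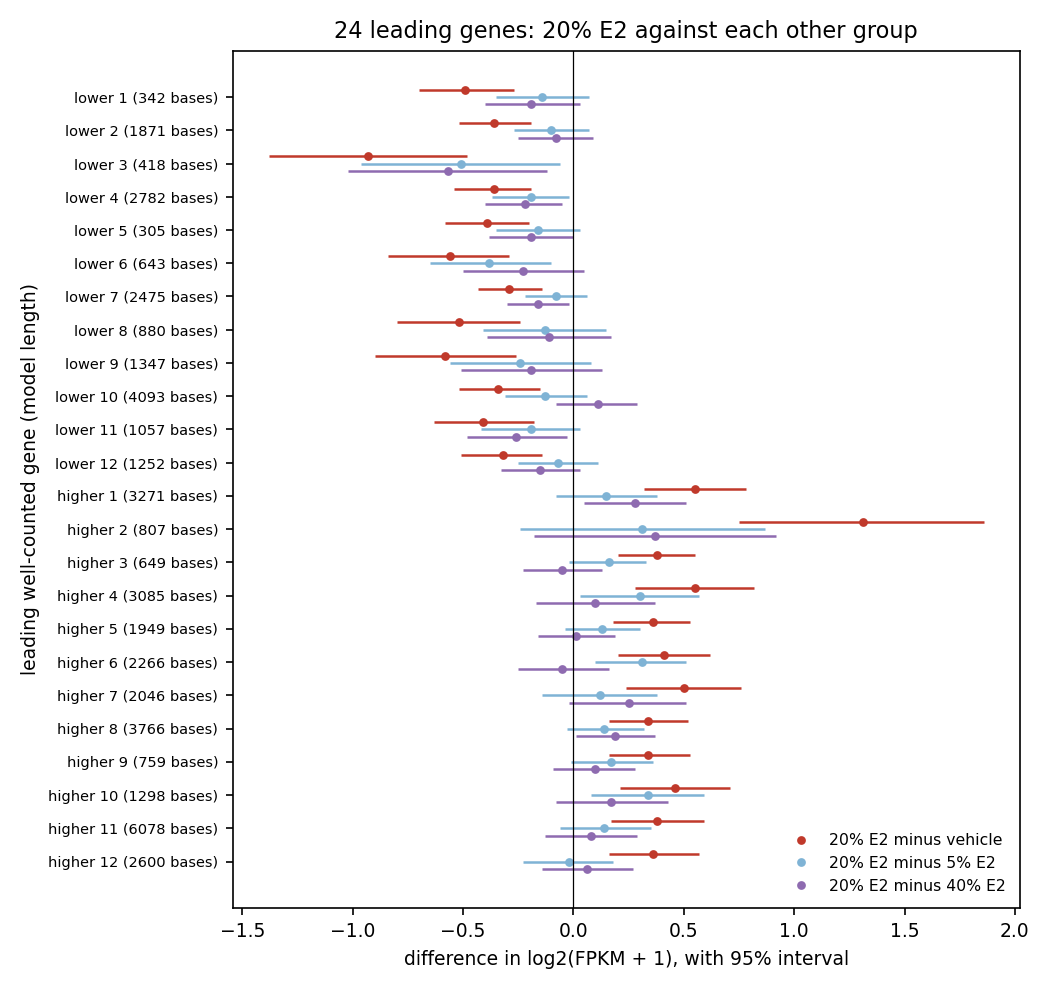
Difference of 20% E2 from vehicle (red), 5% E2 (blue) and 40% E2 (purple) in log2(FPKM + 1) with 95% intervals, unadjusted, for the 24 leading genes in order of p. Intervals against vehicle leave out 0 by the choice of the genes, while most of those against the other doses include it.

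Large differences in well-counted genes came mostly with large spread inside a group. A difference of more than 1 was seen for 34 genes in the higher and 25 in the lower direction, and in 24 and 21 of these the highest library of vehicle or of 20% E2 exceeded the lowest of its own group more than 4-fold. Over all well-counted genes such a spread was seen in 139 of 9927 (1.40%). A wide spread can by itself give a difference over 1, so this contrast is in part built in. The groups did not overlap for 11 of the 34 and 4 of the 25, beside 489 (4.93%) higher and 577 (5.81%) lower among all 9927 well-counted genes; a difference over 1 and a lack of overlap come from the same values, so nothing is read from these counts. A gene of 855 bases, chosen after its values were seen, shows the pattern: 1.75, 30.8 and 17.6 FPKM in vehicle and 1.12, 1.43 and 1.16 at 20% E2 (difference −2.40 ± 0.92 SE, limma adjusted p = 0.785). Vehicle replicate 1 alone was nearly as low as 20% E2.

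Short models were common among the large differences upward. Models under 200 bases made up 12 of the 34 genes that were more than 1 higher, 2 of the 25 that were more than 1 lower, and 167 (1.68%) of all well-counted genes. A model of 57 bases had 308, 492 and 335 FPKM at 20% E2 and 183, 36.6 and 236 in vehicle. One of 49 bases had 106, 190 and 142 FPKM against 41, 44.1 and 79.9. The summed FPKM of the 93 well-counted models under 100 bases was 5294, 6074 and 5388 at 20% E2 and 5018, 4826 and 5223 in vehicle, and 4533 to 5348 in the other 6 libraries, so that 20% E2 replicate 2 was the highest of the 12. No gene of this class passed (smallest limma adjusted p 0.785).

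Among longer models the direction moved with length and with vehicle replicate 1. For models of 3000 bases or more 55.6% of 3326 genes were higher at 20% E2 (median difference 0.01), against 47.5% of 5281 genes of 1000 to 3000 bases and 46.2% of 1153 genes of 200 to 1000 bases. The models of 3000 bases or more held 20.4% of the summed FPKM in vehicle replicate 1 and 22% to 22.9% in the other 11 libraries. Without vehicle replicate 1 the shares of higher genes turned to 40.3%, 50.7% and 54.1% in the same order. The part of model length in the other results was not tested.

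**Figure D4:**
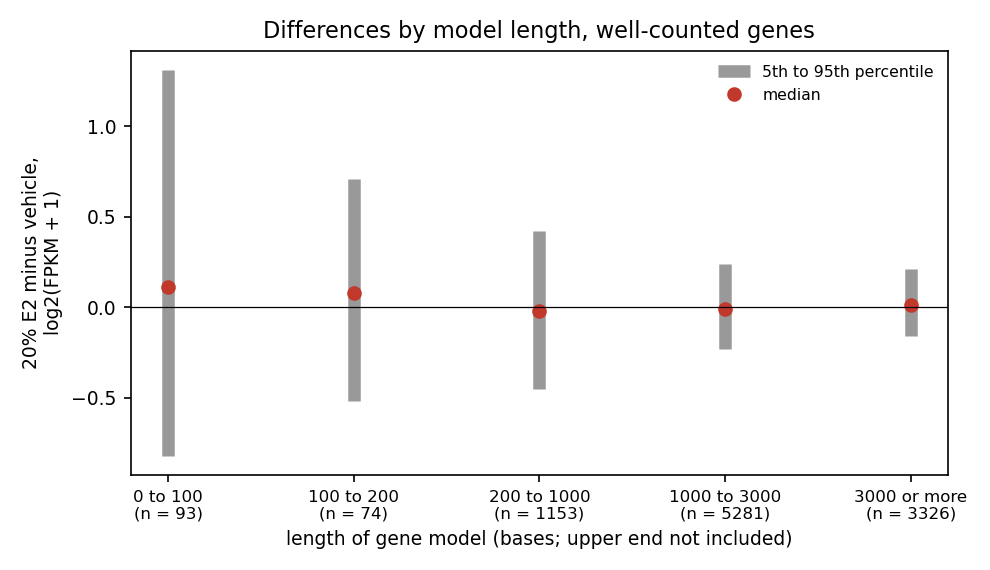
Median (red) and 5th to 95th percentile (grey) of the difference between 20% E2 and vehicle in log2(FPKM + 1), for well-counted genes by length of the gene model. The range is widest for models under 100 bases (−0.82 to 1.31) and narrowest for those of 3000 bases or more (−0.16 to 0.21).

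The set of 623 well-counted genes at an unadjusted p under 0.05 changed when single libraries were left out, which also leaves fewer libraries to compare. Leaving out vehicle replicate 1 left 282 of them (45.3%), leaving out 20% E2 replicate 2 left 309 (49.6%) and replicate 3 left 316 (50.7%). More stayed without vehicle replicate 2 (388, 62.3%), vehicle replicate 3 (465, 74.6%) or 20% E2 replicate 1 (427, 68.5%). The number of well-counted genes at that level, whether or not among the 623, was lowest without 20% E2 replicate 3, at 399 of 9927. Without replicate 2 it was 430. Only 145 (23.3%; 64 higher and 81 lower) were at that level without each of the 6 libraries in turn. Vehicle replicate 1 was the highest of the vehicle libraries for 222 of the 344 lower genes (64.5%), against 37.4% of all well-counted genes. It was the lowest for 154 of the 279 higher genes (55.2%), against 38.2%. Vehicle replicate 3 was the lowest for 51.5% of the lower genes and the highest for 51.6% of the higher genes, against 30.9% and 28.6%. The genes were chosen on these same vehicle values, so such shares are in part built in. Without vehicle replicate 1, 250 well-counted genes were higher and 238 lower at that level, 488 in all, and 0 passed by limma.

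Leaving out vehicle replicate 3 gave 922 of 9927 well-counted genes at that level. It also gave the only well-counted call in any of the 12 fits that leave out a library. This gene, with a model of 3926 bases, had 7.28, 6.49 and 7.5 FPKM at 20% E2 and 2.03, 2.56 and 7.11 in vehicle. With all libraries its difference was 0.86 (limma adjusted p = 0.785), and without vehicle replicate 3 it was 1.30 ± 0.15 SE (adjusted p = 0.0255). It had 6.63, 9.42 and 8.1 FPKM at 5% E2 and 4.74, 5.02 and 5.68 at 40% E2, so that vehicle replicate 3 lay among the libraries with E2.

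**Figure D5:**
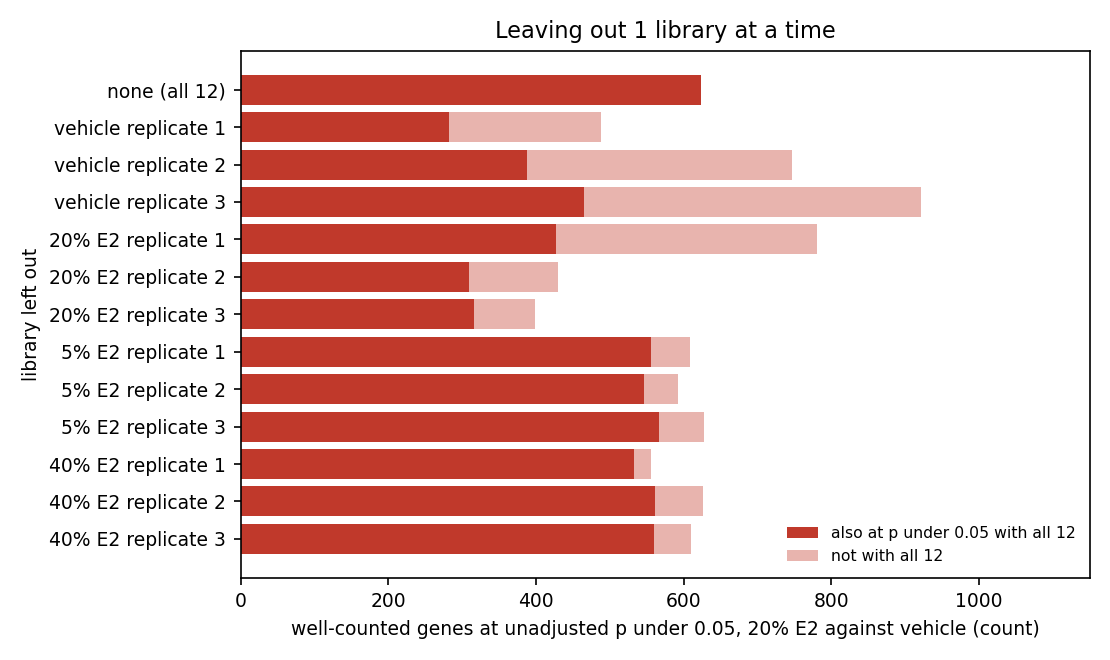
Well-counted genes at an unadjusted p under 0.05 between 20% E2 and vehicle, with all 12 libraries (top) and with each library left out. The dark part of each bar counts genes also found with all 12; it falls from 623 to 282 without vehicle replicate 1.

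The intervals also limit the size of the differences, on the log2(FPKM + 1) scale and given the spread among the deposited libraries. They are not bounds on a fold, since this scale understates changes of low genes. The lower gene of 418 bases, for example, differed by −0.93 on it and 2.17-fold in group means. For 96.5% of well-counted genes the unadjusted 95% interval of the difference lay within 1 of 0, and for 88.5% it lay within the log2 of 1.5. This share rose with level, from 84.4% of the 5422 genes at 5 to 20 FPKM to 93.3% of the 3760 genes at 20 to 100 FPKM and 94.5% of the 745 genes at 100 FPKM or more. Of the 4854 tested genes below 5 FPKM, which had a median of 56.7 fragments per library, 42.8% had an interval that narrow. The 20 most abundant genes, at mean levels of 1148 to 7068 FPKM, differed by −0.26 to 0.09, and all 20 intervals lay within 1 of 0.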

How the data were processed

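Right trigeminal ganglion RNA was measured in 12 libraries, 3 per group. Per the labels' protocols, libraries were made with the NEBNext Ultra kit and sequenced on an Illumina instrument; CASAVA, fastp, HISAT2, featureCounts and DESeq2 are listed in the submitters' processing notes. The sources used here do not give the genome build, annotation, strand setting or treatment of multi-mapping reads, so near-identical or overlapping genes may share reads.

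The deposited values are FPKM computed by the authors, 1 file per library. Some headers do not line up with their columns, and values were read from the second column. An FPKM divides whole fragments by the model length and a library denominator. These fragments were recovered for 21071 of 21071 genes above 0 in at least 2 libraries (largest deviation 8.61e-05), as the smallest numbers that fit, giving 13281981 to 16978830 fragments per library. No molecular identifiers are mentioned, so floors from fragment counts cover counting error only.

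The plan allowed for FPKM. All 12 libraries entered 1 fit of 4 group means (limma 3.58.1, R 4.3.3, trend and robust moderation) on log2(FPKM + 1), a scale that understates changes of low genes. P-values were adjusted by Benjamini-Hochberg over the 14781 genes that reached an FPKM of 1 in 3 or more libraries, with a threshold of 0.05. The code for the fit and the recovery was also run on simulated data. Those data had the same spread setting for every gene and no deviant library, so nothing about the results is read from them. Named genes are those past the threshold and the 12 well-counted genes each way of smallest p whose groups did not overlap; at most 4 identifiers are printed. The comparison, its rule and the gene lists were chosen with earlier results of these data known; model length, within-group spread and all-or-none patterns were examined after the values were seen. None of the identifiers matched the 47357 genes of the GRCr8 reference table, so 26 gene lists and all sequences were not used here. Alternatives are given in the closing section. Python 3.11.15, numpy 2.4.6 and pandas 2.3.3 were used.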

Additional observations from a re-analysis of the deposited data

Results flagged for a closer look

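In the direct test between 20% and 40% E2, 1 of 14781 genes passed the threshold. This gene, with a model of 2248 bases, had 8.12, 6.64 and 7.63 FPKM at 20% E2, 21.9, 21.2 and 26.3 at 40% E2, 10.4, 15.2 and 10.8 in vehicle and 11.3, 8.29 and 14.1 at 5% E2. All 3 libraries at 20% E2 lay below those of every other group. The difference of 20% from 40% E2 was −1.51 ± 0.18 (SE, limma adjusted p = 0.0380). Over the alternatives, not all on log2(FPKM + 1), the difference ranged from −1.63 to −1.42. Its limma adjusted p ranged from 0.00028 to 0.361, so the gene did not pass under every alternative. Against vehicle its difference at 20% E2 was −0.62 (adjusted p = 0.785) and at 40% E2 0.89 (adjusted p = 0.344), neither past the threshold.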

How the results depend on the processing

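The count of genes past the threshold was 1 under median-of-ratios scaling, quantile normalization and without robust moderation. It was 0 on the scale log2(FPKM + 0.1), when low values were not filtered, with genes of a mean FPKM of 5 or more only, with the 6 compared libraries only, with the replicate number as a block, and with limma's voom on the recovered fragments, with and without sample weights; the cause was not tested, apart from the filter at 5 FPKM, which leaves the gene out. Leaving out each library in turn gave 0 to 2, and for well-counted genes 0 to 1. With single libraries left out, ENSRNOG00000054324 differed by −3.11 to −2.60 on log2(FPKM + 1). Its difference was −6.02 on log2(FPKM + 0.1), and −4.00 and −3.84 with voom without and with sample weights. These scales are not alike, so the sizes are not compared. Over the alternatives its limma adjusted p ran from 0.00953 to 0.725, and it passed in 9 of 21. No direction reversed among 549 values of the 25 genes described. In all of these genes the 2 groups did not overlap, so the signs were largely set in advance and nothing is read from this. Genes at an unadjusted p under 0.05 numbered from 598 of 9927 tested (mean FPKM of 5 or more) to 1281 of 22821 (no filter). These counts are thus taken over different numbers of genes. With weighted voom they were 929 and without weights 936, each of 14781. Over all tested genes, deviations of same-numbered libraries of the 2 groups had correlations of −0.00, −0.03 and 0.05. Those of different-numbered libraries ran from −0.08 to 0.08. The check shows no shared deviation over all genes but cannot exclude a pairing that bears on some of them. The replicate block gave 976 of 14781 genes at an unadjusted p under 0.05. Weighted voom gave vehicle replicate 1 a weight of 0.389, against 0.806 to 1.63 for the others, and a smallest adjusted p of 0.0736 for a well-counted gene, ENSRNOG00000018798.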
